A study of Homo sapiens with 4 samples.

Results

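The receptors through which blood cells read haematopoietic growth factors were examined in cells labelled NB4 after knockdown of LDB1. This cofactor carries no DNA-binding domain of its own and binds LMO2, in complexes that also hold GATA and bHLH factors. The set was 9 genes, EPOR, KIT, FLT3, CSF1R, CSF3R, CSF2RA, CSF2RB, IL3RA and IL6R, and its members were the rows of the expression table that carried these symbols. Rows were found for 7 of the 9, among 28412 genes in the table, and FLT3 and CSF2RA were not analysed here. EPOR and KIT were taken as the erythroid and megakaryocyte receptors, and the other members as the myeloid ones.

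NB4 is a human acute promyelocytic leukaemia cell line. Total RNA of 4 libraries was sequenced, 2 from cells given the lentiviral control vector sh-NC and 2 from cells given a vector with a short hairpin RNA against LDB1 (sh-LDB1). Per the study's methods, the hairpins were carried by the pLKO.1 vector and infected cells were selected with puromycin, so each library came from a selected population and not from a clone. Which hairpin was sequenced, and whether replicates were separate cultures, is not given in the sources used here, so the p-values measure the spread between these libraries, which may be technical.

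Levels were read as FPKM, mapped fragments scaled to transcript length and library size. The FPKM steps gave back between 14280652 and 16517848 reads per library. The library sizes behind the FPKM values were not these totals. They were 0.980 and 0.974 times the totals in sh-NC and 1.05 and 1.06 times in sh-LDB1. Scaling by total recovered reads, used below, puts the totals in their place. The controls held 135.1 and 120.1 FPKM of LDB1 and the knockdown libraries 10.2 and 9.47 FPKM, which left 7.73% of the control mean. Its partner LMO2 measured 24.2 and 23.2 FPKM against 4.34 and 4.51 FPKM. Erythroid transcripts were abundant for a line labelled promyelocytic, and ELANE was at or near 0. Of 8 promyelocyte markers with rows, 4 were at 1 FPKM or more in every library. In every library 2 were under 1 FPKM, ELANE among them. Of 14 erythroid markers 10 were at 1 FPKM or more in every library and 1 was under it in every library. These values put the identity of the line in question, which was not tested in these libraries, and NB4 is used below as the labels give it. The paper states that its cell lines were regularly authenticated by short tandem repeat profiling. Its supplement holds a report in which an NB4 sample matched the reference profile exactly. Whether the sequenced cells came from that sample is not given in the sources used here. HBZ, an embryonic globin, measured 1543 and 1600 FPKM in sh-NC and 58.9 and 61.3 FPKM in sh-LDB1. ELANE, the neutrophil elastase of promyelocyte granules, was listed at 0 everywhere but in sh-LDB1 replicate 1, where it was at 0.182 FPKM. MPO was not analysed here.

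Most members belong to the cytokine receptor family, whose chains have no enzyme activity and signal through JAK kinases bound to their tails. EPOR is the erythropoietin receptor that erythroid progenitors need to survive. CSF3R reads granulocyte colony-stimulating factor and drives neutrophil production. IL6R binds interleukin-6 and passes the signal to IL6ST (gp130), while IL3RA and CSF2RB together form the interleukin-3 receptor. KIT, the stem cell factor receptor, and CSF1R, the macrophage colony-stimulating factor receptor, are instead receptor tyrosine kinases with a kinase domain of their own, and KIT is kept by mast cells while most other lineages lose it as they mature.

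A gene was tested where its mean over the 4 libraries was at least 1 FPKM, which held for 13300 genes and for 4 of the 7 members. Calls came from limma on log2(FPKM + 1). A gene was called changed at an adjusted p under 0.05 and a fold change over 2 or under 0.5 of FPKM + 1. A gene of low level could thus change more than 2-fold in FPKM and not be called. EPOR and KIT were called lower and CSF3R and IL6R higher, so all 4 tested members were called. Over all tested genes 19.8% were called, 9.5% higher and 10.3% lower. KIT passed the level filter only through its sh-NC values and IL6R only through its sh-LDB1 values, so each had to differ to be tested. CSF2RB, CSF1R and IL3RA had means under the filter.

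**Figure D1:**
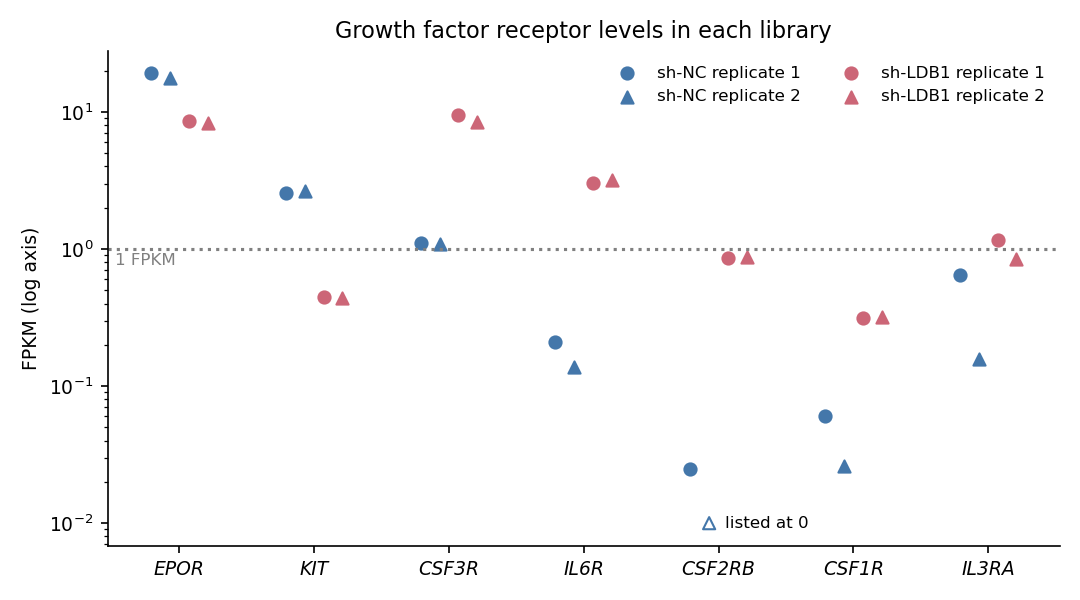
FPKM of the 7 receptors on a log axis, with 1 point for each library (blue, sh-NC; red, sh-LDB1; circles, replicate 1; triangles, replicate 2) and a dotted line at 1 FPKM; the open triangle stands for CSF2RB listed at 0. EPOR and KIT sit lower in sh-LDB1, and the other 5 receptors sit higher, with IL3RA the closest pair of groups (0.650 against 0.850 FPKM).

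EPOR (ENSG00000187266, hg38 chr19:11377207-11384342, minus strand) was the most abundant of the 7 receptors in the control libraries. It measured 19.1 and 17.7 FPKM in sh-NC and 8.58 and 8.33 FPKM in sh-LDB1, from 953, 802, 423 and 388 reads. Both knockdown libraries lay under both controls. The means were 18.4 ± 1.03 and 8.45 ± 0.175 FPKM (SD, n = 2 each), so that 45.9% of the control level was left. On the log2(FPKM + 1) scale EPOR fell by 1.04 (SE 0.0596, limma adjusted p = 0.000269). This lay close to the fold threshold. Scaling by the total of recovered reads gave -0.93 and leaving out sh-NC replicate 1 gave -0.98, and with either EPOR was no longer called, at adjusted p = 0.00038 and 0.00235 from limma. Its rank among all genes moved from the 90.6 and 89.8 percentile in sh-NC to the 82.0 and 81.6 percentile in sh-LDB1.

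The summed level of the erythroid markers moved with EPOR. All 12 tested members of a list of 14 erythroid genes were called lower, against 10.3% of all tested genes, and the list summed to 4110 and 4280 FPKM in sh-NC and 440.4 and 403.5 FPKM in sh-LDB1, with 10 of the 14 genes still at 1 FPKM or more in every library. These are bulk libraries, in which fewer cells of a type and less RNA per cell cannot be told apart. The part of the erythroid change in the fall of EPOR was not tested.

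The stretch upstream of EPOR is shown because it holds a match to the GATA motif, the DNA element bound by the factors that LDB1 is known to work with. The windows searched were the 250 bases before the start of each gene in the RefSeq promoter table (GRCh38.p14), which had entries for 6 of the 7 receptors. The GATA motif was taken as AGATAA or AGATAG or TGATAA or TGATAG on either strand and stood in 22.4% of all 34788 windows. EPOR had 1 match, which is in capitals and is read on the other strand (chr19:11384375-11384404, minus strand, 90 to 61 bases before the start). The windows of CSF1R and IL3RA, which lay higher in sh-LDB1, also held 1 GATA match each, so the match was not particular to the receptor that fell.
EPOR site: cccgccaggcacTTATCTctacccaggctg

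The E-box, the element of bHLH factors, was searched as CAGCTG or CAGATG or CAGGTG on either strand. It stood in 37% of all windows, with 2 or more matches in 9.6%, and matched at 2 places in the EPOR window. A window of CSF1R held 3 matches, and windows of CSF3R, IL6R and IL3RA held 1 each. All of these receptors lay higher in sh-LDB1, so the E-box was not particular to EPOR. A match is only a run of letters, and no binding was measured in these libraries.

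KIT (ENSG00000157404, hg38 chr4:54657267-54740783, plus strand) fell further than EPOR in proportion. It measured 2.57 and 2.66 FPKM in sh-NC and 0.449 and 0.440 FPKM in sh-LDB1. The replicates lay close together and the groups far apart, with means of 2.61 ± 0.0646 and 0.444 ± 0.00654 FPKM (SD, n = 2 each), and 17.0% of the control level was left. The log2(FPKM + 1) value fell by 1.32 (SE 0.118, limma adjusted p = 0.000876). The added 1 FPKM damps a change at such low levels. With a pseudocount of 0.1 KIT fell by 2.32 on the log2 scale, and with voom, a limma method for reads, on the recovered reads by 2.54. Those reads numbered 231 and 218 against 40 and 37, or a multiple of these, since the FPKM steps of KIT fit more than 1 length. The ratio of EPOR to KIT, both per length, was 7.45 and 6.65 in sh-NC against 19.1 and 18.9 in sh-LDB1.

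KIT is also a receptor of megakaryocyte progenitors and mast cells. Of a list of 9 markers of those cells 6 had rows and 2 were tested, with 0 called by limma, 0 at an unadjusted p under 0.05 and 0 by voom. The list summed to 3.48 and 3.06 FPKM in sh-NC and 4.07 and 3.47 FPKM in sh-LDB1. The groups overlapped in this sum, while KIT fell. Of the 6 rows 4 were under 1 FPKM in every library, those of the mast cell markers among them, so the sum says little of mast cells. The genes closest to KIT in pattern, by the root mean square difference of log2(FPKM + 1) values centred on each gene over the 4 libraries, were DDHD2 (0.00340), RAD18 (0.00488) and NAT10 (0.0101).

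The KIT stretch is shown as a contrast with EPOR, because it holds no match to the GATA, E-box, ETS or C/EBP letters searched. The whole 250-base window has 76.4% G and C, against a median of 58% over all windows. The printed part ends 69 bases before the RefSeq start (chr4:54657707-54657888, plus strand). That start lies downstream of the gene start given above, which is from GENCODE, so the stretch lies within the GENCODE span of KIT but outside its exons.
KIT upstream: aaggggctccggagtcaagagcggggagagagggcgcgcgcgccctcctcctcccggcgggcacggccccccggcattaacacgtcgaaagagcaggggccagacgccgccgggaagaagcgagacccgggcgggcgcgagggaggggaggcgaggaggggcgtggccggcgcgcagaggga

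CSF3R (ENSG00000119535, hg38 chr1:36466043-36483278, minus strand) rose most of the tested receptors on the log2(FPKM + 1) scale. It measured 1.10 and 1.08 FPKM in sh-NC and 9.46 and 8.49 FPKM in sh-LDB1, from 150, 134, 1278 and 1083 reads. The groups were far apart and the spread within each was small. The means were 1.09 ± 0.0153 and 8.98 ± 0.688 FPKM (SD, n = 2 each), an 8.24-fold higher level. The log2(FPKM + 1) change was 2.25 (SE 0.0823, limma adjusted p = 0.000117). In rank CSF3R moved from the 55.6 and 55.4 percentile of all genes to the 83.3 and 81.9 percentile, beside EPOR. The genes closest to CSF3R in pattern, by the same measure as for KIT, were SMIM3 (0.0278), SH2B2 (0.0285) and MMRN2 (0.0314).

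The RefSeq table gives CSF3R a distal start and a proximal start, the latter within the gene span given above. The stretches are shown because they hold matches to elements of the myeloid factors PU.1, an ETS factor, and C/EBP. The ETS motif was searched as GAGGAA and stood in 23.6% of all windows. The C/EBP half-site was searched as GCAAT and stood in 21.3%. The proximal window held 1 match to each and the distal window 1 C/EBP and 1 E-box match, all in capitals. The printed parts lie on the minus strand at chr1:36483315-36483564, chr1:36483007-36483036 and chr1:36482942-36482971 in this order.
CSF3R distal upstream: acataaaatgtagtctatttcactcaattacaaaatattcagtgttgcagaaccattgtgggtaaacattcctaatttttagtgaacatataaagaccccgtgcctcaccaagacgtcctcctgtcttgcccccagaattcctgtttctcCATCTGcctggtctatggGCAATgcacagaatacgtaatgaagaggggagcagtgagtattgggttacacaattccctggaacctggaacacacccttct
CSF3R proximal ETS site: gctccttcctggGAGGAAggggctgcctgt
CSF3R proximal C/EBP site: tcggaaggtgttGCAATccccagcccccgg

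IL6R (ENSG00000160712, hg38 chr1:154405193-154469450, plus strand) had the widest proportional rise of the tested members. It measured 0.211 and 0.137 FPKM in sh-NC and 3.05 and 3.17 FPKM in sh-LDB1, from 22, 13, 315 and 310 reads. It was thus barely detected in the controls and at a level near that of KIT in the controls after knockdown. The means were 0.174 ± 0.0524 and 3.11 ± 0.0905 FPKM (SD, n = 2 each), a 17.9-fold difference. The log2(FPKM + 1) change was 1.81 (SE 0.127, limma adjusted p = 0.000442), and with a pseudocount of 0.1 it was 3.57. The ratio of summed reads, scaled by the library sizes behind the FPKM values, was 17.7 (95% exact interval 12.6 to 25.7, which covers counting error only). The antisense gene IL6R-AS1, whose reads cannot be told apart without strand, was at 0.113 FPKM or less in every library. The pseudogene PSMD8P1, on the opposite strand within IL6R over 769 bases, was at 0.161, 0, 0.162 and 0.0859 FPKM, near the control level of IL6R and far under its sh-LDB1 level.

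IL6R works only with its signal chain IL6ST, a gene named here after its values were seen. IL6ST measured 6.20 and 6.51 FPKM in sh-NC and 10.9 and 11.3 FPKM in sh-LDB1. Its log2(FPKM + 1) change was 0.72 (limma adjusted p = 0.000616), under the fold threshold. The ratio of IL6ST to IL6R, both in FPKM, was 29.4 and 47.7 in sh-NC against 3.56 and 3.57 in sh-LDB1. The signal chain was therefore the more abundant of the pair in all 4 libraries.

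The IL6R window held 2 ETS matches and 1 E-box match, and its outer part is shown because it holds 1 of the ETS matches, in capitals (chr1:154405093-154405192, plus strand, 250 to 151 bases before the start).
IL6R upstream: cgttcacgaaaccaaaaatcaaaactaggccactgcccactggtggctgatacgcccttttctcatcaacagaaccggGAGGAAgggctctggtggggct

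The remaining 3 myeloid receptors were near the limit of detection in the controls. CSF2RB (ENSG00000100368, hg38 chr22:36913628-36940439, plus strand), the signal chain shared by the receptors of interleukin-3, interleukin-5 and granulocyte-macrophage colony-stimulating factor, measured 0.0247 and 0 FPKM in sh-NC and 0.861 and 0.872 FPKM in sh-LDB1. That is 2 and 0 reads against 69 and 66 reads. The ratio of the 135 knockdown reads to the 2 control reads, scaled by the library sizes behind the FPKM values, was 67.0 (95% exact counting interval 18.2 to 559.0). Both knockdown libraries lay well above both controls.

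CSF1R (ENSG00000182578, hg38 chr5:150053291-150113372, minus strand) measured 0.0600 and 0.0263 FPKM in sh-NC and 0.315 and 0.321 FPKM in sh-LDB1, from 5, 2, 26 and 25 reads. The ratio was 7.23 (95% exact counting interval 3.27 to 18.9). The level stayed under 1 FPKM in every library. Its value is uncertain, because the ribosomal pseudogene RPL7P1 lies within CSF1R on the opposite strand over 747 bases and was listed at 223.0, 242.4, 122.7 and 114.1 FPKM, and whether counting used strand is not given in the sources used here.

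IL3RA (ENSG00000185291, hg38 chrX:1336616-1382689, plus strand), the ligand-binding chain that pairs with CSF2RB, measured 0.650 and 0.159 FPKM in sh-NC and 1.17 and 0.850 FPKM in sh-LDB1. The control replicates differed from each other by 18 against 4 reads, more than the gap between the higher control and the lower knockdown library. The knockdown libraries had 32 and 22 reads, and the ratio was 2.44 (95% exact counting interval 1.46 to 4.20). Smaller read numbers in the same proportion also fit the FPKM steps of IL3RA, and with them the interval would be wider. IL3RA lies in the pseudoautosomal region that X and Y share, so counting could split its reads, and its values are uncertain.

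Tested without the level filter, 0 of these 3 were called by limma and 2 had an unadjusted p under 0.05, where 9.67% of all genes were called. By adjusted p under 0.05 alone, 34.4% of all genes passed and 17.3% passed as higher, and CSF2RB and CSF1R were among the latter. In this fit the log2(FPKM + 1) change of CSF2RB was 0.88 (SE 0.0743, limma adjusted p = 0.00429), that of CSF1R 0.34 (limma adjusted p = 0.0151) and that of IL3RA 0.53 (SE 0.231, limma adjusted p = 0.174). With voom on genes of at least 10 reads in all, a choice made after the data were seen, all 3 were called higher, where 16.2% of all genes were called higher and 27.7% either way. The voom log2 changes were 5.88 for CSF2RB, 2.78 for CSF1R and 1.52 for IL3RA (limma adjusted p = 0.000203, 0.00262 and 0.0352).

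In each of the 3, both sh-LDB1 libraries lay above both sh-NC libraries. The same held for 33.4% of all genes with a mean under 1 FPKM and for 49.8% of those that also had at least 50 reads. These 3 had that many by the recovered reads, though for IL3RA fewer reads also fit. Among tested genes the groups failed to overlap in 84.6%. The order of libraries in these 3 receptors was thus common in genes of their level.

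The make-up of the receptor transcripts differed between the groups while their summed level overlapped. The 7 receptors summed to 23.7 and 21.7 FPKM in sh-NC and 23.9 and 22.5 FPKM in sh-LDB1. EPOR was 80.6% and 81.3% of that sum in sh-NC against 35.9% and 37.1% in sh-LDB1. CSF3R was 4.63% and 4.96% in sh-NC against 39.6% and 37.8% in sh-LDB1. KIT moved from 10.8% and 12.2% to 1.88% and 1.96%, and IL6R from 0.888% and 0.629% to 12.8% and 14.1%. The 5 myeloid receptors together made up 8.62% and 6.44% in the controls and 62.2% and 61.0% after knockdown. With 2 libraries a group, an exact permutation test on such a share cannot go below p = 0.333, so none is given.

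**Figure D2:**
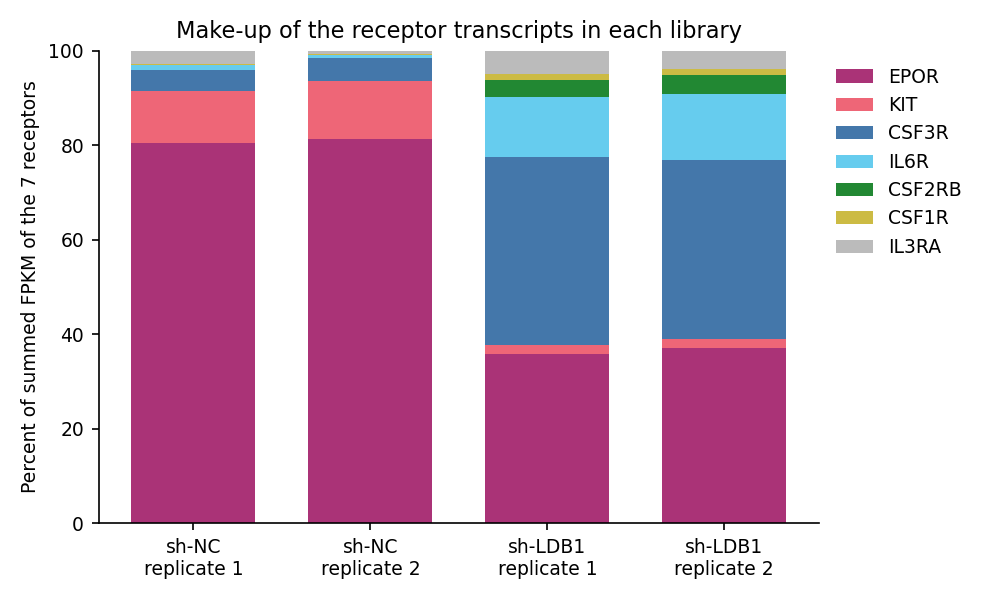
Stacked bars of the share of each receptor in the summed FPKM of the 7 receptors, in percent from 0 to 100, with 1 bar for each library. EPOR takes 80.6% and 81.3% of the sh-NC bars and 35.9% and 37.1% of the sh-LDB1 bars, where CSF3R takes 39.6% and 37.8%.

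In summed level the myeloid receptors went from 2.05 and 1.40 FPKM to 14.9 and 13.7 FPKM, and EPOR with KIT from 21.7 and 20.3 FPKM to 9.02 and 8.77 FPKM. In sh-NC the order of mean levels was EPOR, KIT, CSF3R, IL3RA, IL6R, CSF1R and CSF2RB, in which IL3RA and IL6R overlapped. In sh-LDB1 it was CSF3R, EPOR, IL6R, IL3RA, CSF2RB, KIT and CSF1R, in which CSF3R and EPOR overlapped, as did IL3RA and CSF2RB. The ratio of EPOR to CSF3R, both in FPKM, was 17.4 and 16.4 in sh-NC against 0.906 and 0.981 in sh-LDB1.

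Some markers of myeloid cells were higher beside the myeloid receptors and others were near 0 or lower. Of 10 promyelocyte markers 8 had rows, 6 were tested and 3 were called higher, with 0 lower, against 9.5% higher and 10.3% lower over all tested genes. The list summed to 22.4 and 21.5 FPKM in sh-NC and 66.7 and 64.9 FPKM in sh-LDB1. The called genes were PRTN3, a granule protease, and SPI1 and LYZ, the factor PU.1 and lysozyme, of which the last pair is named after its values were seen. PRTN3 measured 1.29 and 1.18 FPKM against 5.50 and 4.50 FPKM, SPI1 10.5 and 10.7 FPKM against 34.3 and 35.3 FPKM, and LYZ 5.85 and 5.61 FPKM against 19.3 and 19.1 FPKM. AZU1, azurocidin, was not called by limma, at 1.94 and 1.67 FPKM against 4.83 and 3.93 FPKM. Voom on genes of at least 10 reads called AZU1 higher (log2 change 1.26, limma adjusted p = 0.000265). That fit called 4 genes of the list higher and 1 lower, where 16.2% of all genes were called higher and 27.7% either way. CEBPE, a granulocyte factor also named after its values were seen, was at 1.55 and 1.27 FPKM against 0.924 and 0.340 FPKM and was not called by limma, while voom on genes of at least 10 reads called it lower (log2 change -1.27, limma adjusted p = 0.0277).

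Of 8 monocyte and macrophage markers 6 had rows and 1 was tested. That gene was ITGAM, an integrin of myeloid cells named after its values were seen, at 0.0217 and 0.0596 FPKM in the controls and 4.89 and 4.94 FPKM after knockdown. It passed the level filter only through its sh-LDB1 values, so it had to differ to be tested. ITGAM made up most of the list's sum, which was 0.434 and 0.297 FPKM and then 5.75 and 5.73 FPKM. The defining marker CD14 stayed at 0.164, 0.108, 0.331 and 0.350 FPKM, and CD68 was at 0.141 and 0.0620 FPKM in the controls and listed at 0 after knockdown. A list of 6 markers of other cells, of which 5 had rows and 1 was tested with 0 called by limma and 0 at an unadjusted p under 0.05, summed to 1.18 and 1.56 FPKM against 4.20 and 4.31 FPKM, and 4 of them were called higher by voom on genes of at least 10 reads. The part of these changes in the receptor values was not tested.

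The other genes of the pathway were taken from lists by role. Beside each list stands the median log2(FPKM + 1) change of its tested genes, which over all tested genes was -0.08. Of all tested genes 9.5% were called higher and 10.3% lower. When libraries were scaled by total recovered reads that overall median became 0.01, and none of the list medians below changed sign.

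Of 10 ligands of these receptors, 2 were tested. CSF1, the ligand of CSF1R, measured 4.66 and 4.89 FPKM in sh-NC and 44.1 and 46.8 FPKM in sh-LDB1 and was called higher by 3.01 on the log2(FPKM + 1) scale. No other ligand was called in this fit, and its level far exceeded that of CSF1R, at 0.315 and 0.321 FPKM in the same libraries. The other tested ligand, THPO, had a change of 0.59 and was not called. EPO was at 0.186 and 0.204 FPKM against 0.798 and 0.745 FPKM, and CSF3, the ligand of CSF3R, was listed at 0 in both controls. The median of the 2 tested ligands was 1.80.

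Other cytokine receptors did not move as a body. Of 28 listed 26 had rows and 12 were tested, of which 1 was called higher and 1 lower, with a median of -0.28. That is near the share of all tested genes called, 19.8% either way. IL10RA, the interleukin-10 receptor chain, measured 1.98 and 2.08 FPKM in sh-NC and 11.1 and 11.7 FPKM in sh-LDB1, a log2(FPKM + 1) change of 2.04. LEPR, the leptin receptor, fell from 11.8 and 13.3 FPKM to 3.44 and 3.89 FPKM, a change of -1.54.

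Among other receptor tyrosine kinases some were called lower and most were not called. Of 18 listed 17 had rows and 7 were tested, of which 3 were called lower and 0 higher by limma, with a median of -0.73. Among all tested genes 10.3% were called lower and 9.5% higher. FGFR3, a fibroblast growth factor receptor, averaged 61.8 ± 0.830 FPKM in the controls and 21.2 ± 0.181 FPKM after knockdown (SD, n = 2 each), above every member in either group. Its log2(FPKM + 1) change was -1.50 and that of the ephrin receptor EPHB4 -1.56. By unadjusted or adjusted p alone 5 were lower and 1 higher, and voom on genes of at least 10 reads called 3 higher.

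The kinases and transcription factors that the cytokine receptors use split by member. Of 11 JAK and STAT genes 9 were tested, 3 were called lower and 1 higher, with a median of -0.21. The shares over all tested genes were 10.3% lower and 9.5% higher. STAT5A, the main transcription factor under EPOR, measured 67.9 and 67.2 FPKM in sh-NC and 14.8 and 14.6 FPKM in sh-LDB1, a log2(FPKM + 1) change of -2.13. Its close paralog STAT5B had a change of -1.50, from 42.2 and 44.2 FPKM to 15.6 and 13.6 FPKM, and reads that fit both genes could have been split between them. STAT2, which acts under interferon receptors, had a change of 1.59. The last called gene was JAK2, the kinase bound to EPOR, named here after its values were seen. JAK2 measured 10.2 and 9.88 FPKM against 4.56 and 4.37 FPKM, a change of -1.01. Like EPOR it lay at the fold threshold, and its call was lost under scaling by total reads and without sh-NC replicate 1 or sh-LDB1 replicate 2.

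Among genes downstream of the receptors and genes that damp them few were called, as was so of all tested genes, of which 19.8% were called. Of 28 adaptors and RAS and PI3K genes 22 were tested, with IRS2 called higher (1.12 on the log2(FPKM + 1) scale) and GAB3 called lower (-1.57), and a median of 0.21. Of 18 attenuators 17 had rows and 15 were tested, with a median of 0.06. USP18, which restrains interferon receptor signals, was called higher by 1.12 but not without sh-LDB1 replicate 1, and RNF41, a ubiquitin ligase that targets cytokine receptors, by 1.05. SH2B3, the adaptor LNK that restrains EPOR and KIT signals, fell by 1.04 on the log2(FPKM + 1) scale, and it was not called when libraries were scaled by total reads or when sh-NC replicate 2 was left out.

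**Figure D3:**
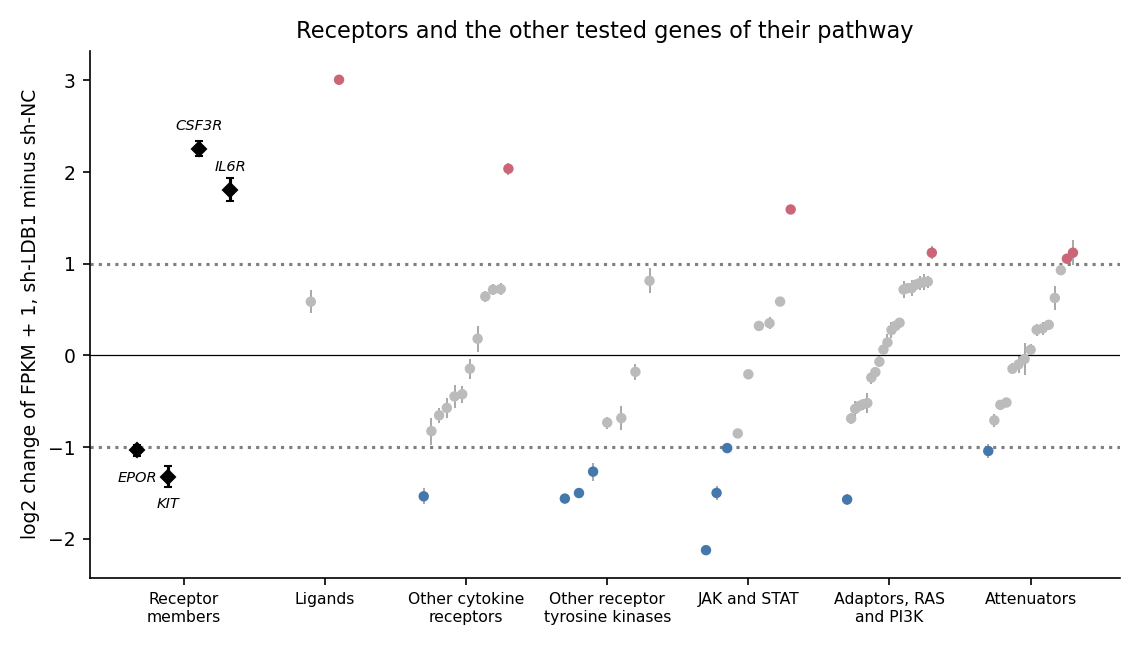
Change in log2(FPKM + 1), sh-LDB1 minus sh-NC, of the 4 tested receptors (black diamonds) and of the other tested genes of each list. Red is called higher, blue called lower and grey not called. Bars show 1 standard error, and dotted lines a 2-fold change of FPKM + 1. CSF3R and IL6R lie above the upper line at 2.25 and 1.81, EPOR and KIT below the lower line at -1.04 and -1.32, and 20 of 22 adaptors and 12 of 15 attenuators are not called.

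**Figure D4:**
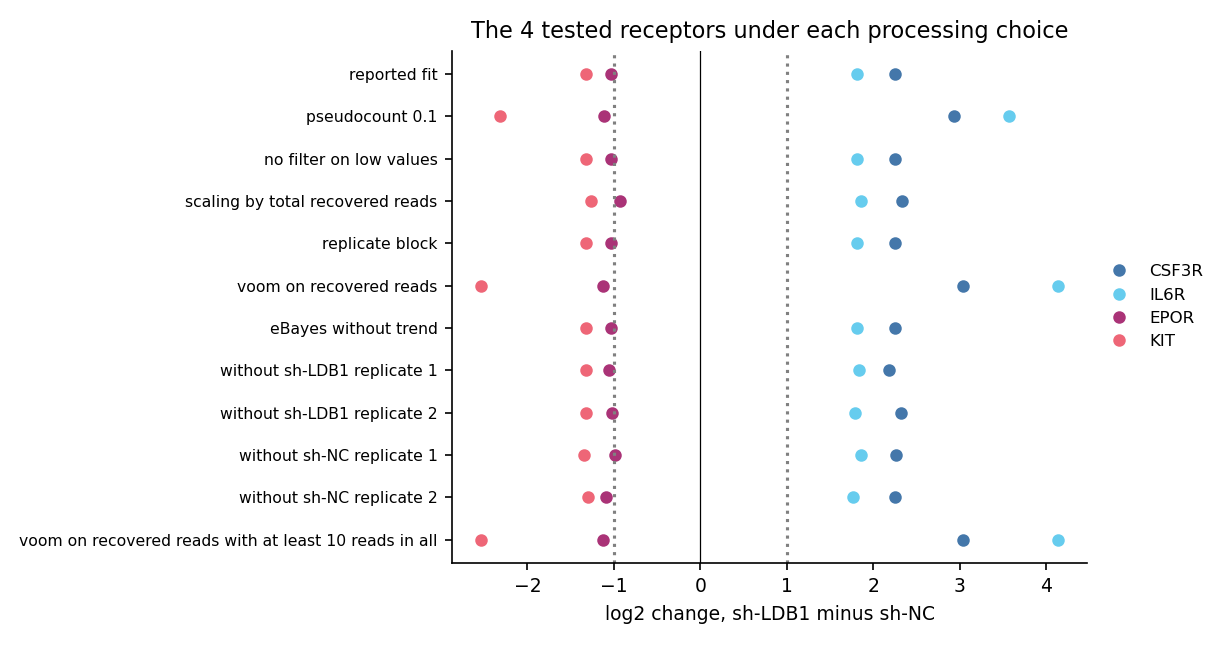
Change on the log2 scale, sh-LDB1 minus sh-NC, of the 4 tested receptors (1 colour each) under each processing choice (rows), with dotted lines at a 2-fold change. Every receptor keeps its side of 0, EPOR stays close to the line at between -1.12 and -0.93, and KIT and IL6R move furthest, to -2.54 and 4.14 with voom.

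The plot of processing choices places EPOR apart from the other tested receptors. Its change stayed between -1.12 and -0.93 under the choices plotted. CSF3R, IL6R and KIT kept their calls under every choice plotted, and CSF3R ranged from 2.18 to 3.04.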

How the data were processed

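Total RNA of NB4 cells was prepared for sequencing with the TruSeq kit of Illumina, and per the submitters' processing notes reads were mapped with HISAT2 2.0.5 on hg38. The counting tool, annotation and use of strand are not given in the sources used here. The authors deposited 1 table of FPKM per gene and library, and they used DESeq2 for their own calls. Because the deposited FPKM values are not counts, limma 3.58.1 (R 4.3.3) was fitted to log2(FPKM + 1) of genes that averaged 1 FPKM or more, with a trended prior and Benjamini-Hochberg adjustment, which was tested on simulated data. Reads were recovered from the FPKM steps with the gene length nearest that of GENCODE that made all reads whole. By this, 98.4% of genes came out whole within 0.02 reads in every library. Since the length was chosen to give whole reads, that share is not a separate check of the reads. Of those genes 86.8% had a fitted length within 10% of the GENCODE one. Exact intervals cover counting error only. Fold changes on the log2(FPKM + 1) scale understate those of low genes. The replicate numbers did not pair the libraries. The alternatives were a pseudocount of 0.1, no filter, total-read scaling, a replicate block, voom, no trend, no fold threshold and leaving out each library. The members and lists were chosen with earlier results of these data known. Named genes were all members, LDB1, LMO2, up to 3 called genes of each list with the largest change, defining markers, and the 3 nearest patterns of the member that rose and the member that fell most. Some genes that this rule names are not reported here.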

Additional observations from a re-analysis of the deposited data

How the results depend on the processing

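No change of a tested member changed direction under the alternatives run, but the median of all genes went from -0.08 to 0.01 under scaling by total reads. The balance of calls turned from 1264 higher and 1371 lower to 1484 and 1117 under that scaling. Of 246 values under alternatives, 219 kept their side of the threshold or stayed within 1.5 times, 25 counts moved further and 2 values lost their call, both of EPOR. The change of EPOR was -0.93 under scaling by total reads and lay between -1.09 and -0.98 when each library was left out, which took the members called lower from 2 to 1 under that scaling and to between 1 and 2 when each library was left out (1 without sh-NC replicate 1). The voom fit on genes of at least 10 reads, chosen after seeing the data, tests more genes. It called 5 members higher, and 3376 genes higher and 2386 lower. Dropping the fold threshold gave 3983 higher and 4978 lower. In that voom fit 5 ligands, 6 other cytokine receptors, 3 other receptor tyrosine kinases, 2 JAK and STAT genes and 3 adaptors were higher, and 3 other cytokine receptors, 5 other receptor tyrosine kinases and 2 adaptors were lower. A pseudocount of 0.1 and the planned voom fit each called 2 other cytokine receptors lower, 1 other receptor tyrosine kinase higher and 2 adaptors higher, and without the filter 2 JAK and STAT genes were higher. Attenuators called higher lay between 1 and 2 when each library was left out (1 without sh-LDB1 replicate 1), and those called lower between 0 and 1 (0 without sh-NC replicate 2), with 0 under scaling by total reads. Where no cause is given, the cause was not tested. Scaling by total reads moved the median of all genes by 0.09 on the log2 scale and the share of calls that were lower from 52.0% to 42.9%.

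Libraries with the same replicate number had deviations correlated at 0.02, so the replicate block is given only here. It left EPOR at -1.04 (limma adjusted p = 0.000765), and with it 1274 genes were called higher and 1386 lower. It changed no call of a tested member. Depth limits CSF2RB, CSF1R and IL3RA, with 2, 7 and 22 reads over both controls.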
